A study of Mus musculus with 2 samples.

Results

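Goblet cells are the mucus-secreting cells of the intestinal epithelium. In 2 single-cell libraries of mouse jejunum they were chosen by the transcripts of 5 genes, Muc2, Fcgbp, Tff3, Agr2 and Spink4. A cell was taken where these genes together made up at least 2% of its UMIs (unique molecular identifiers, the counted RNA molecules), at least 3 of the 5 were detected, and Lyz1 with the Defa genes of Paneth cells made up less than 10%. This selected 614 goblet cells of 22282 kept cells, 350 in the FZD5/8 antagonist library and 264 in the Fc control library. Cells came from Lgr5-eGFP-IRES-CreER mice, labelled female and 10 to 12 weeks old, and had been sorted as GFP+, the reporter of the stem cell gene Lgr5. The antagonist group had received an antagonist of FZD5 and FZD8, receptors for Wnt ligands, and the control group an Fc protein. The sources used here state neither the dose nor the length of treatment. The labels give 3 mice and the files 1 library per condition, and cells cannot be assigned to mice from the labels. The 2 libraries therefore have no replicate check and no test was made. All intervals are 95% intervals that cover counting error only, and each comparison is between these 2 libraries rather than between conditions.

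Goblet cells arise from secretory progenitors of the crypt, where low Notch signalling lets the transcription factor Atoh1 act and Spdef, Klf4 and Creb3l1 take part in their maturation. They package the gel-forming mucin Muc2, assemble it with the help of Agr2 and a large endoplasmic reticulum, and release it with partners such as Fcgbp, Tff3, Zg16 and Clca1. Wnt signalling maintains the stem cells and Paneth cells that share the crypt with them. Paneth cells and goblet cells come from related progenitors, and Spink4 and Agr2 transcripts occur in both lineages.

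The antagonist library held 55810293 UMIs in 13085 barcodes and the control library 67411637 UMIs in 12672 barcodes. After the filter of at least 500 genes and at most 20% mitochondrially encoded UMIs, 11019 antagonist cells and 11263 control cells remained. The libraries shared 145 barcode sequences, 67 of them among kept cells, and no goblet barcode of one library was a goblet barcode of the other. Although both libraries are labelled female, they differed in sex-linked transcripts. The CPM of a gene is its summed UMIs over a library's goblet cells, scaled to the total UMIs of those cells. In goblet cells Xist, the RNA that silences an X chromosome in female cells, stood at 562 CPM in the antagonist library and 0.427 CPM in the control library. The Y-linked genes of the marker list, Ddx3y, Eif2s3y and Uty among them, summed to 5.22 CPM in antagonist goblet cells and 102 CPM in control goblet cells. Sex-linked transcripts and the condition cannot be told apart in any result below.

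The 5 genes that chose the cells describe a dense secretory program, with no test attached. All 5 were detected in 311 of the 350 antagonist goblet cells and in 242 of the 264 control goblet cells. Their summed share had a median of 6.49% of UMIs in antagonist goblet cells, ranging up to 25.8%, and a median of 5.53% in control goblet cells, ranging up to 20.8%. Spink4 (GRCm38 chromosome 4, 40920052 to 40931395), a Kazal-type protease inhibitor, was the most abundant, with 36994 CPM in antagonist and 34192 CPM in control goblet cells. Agr2, a protein disulfide isomerase needed for Muc2 processing, stood at 18826 CPM in antagonist and 15430 CPM in control goblet cells. Fcgbp, which is secreted with the mucin, stood at 8528 CPM in antagonist and 5505 CPM in control goblet cells, and Tff3, a trefoil peptide, at 6753 and 5062 CPM. Muc2, the mucin itself, stood at 2370 CPM in antagonist and 1802 CPM in control goblet cells. These levels count the ends of transcripts and are not comparable between genes as amounts of RNA. Just inside the limit, at 2 to 2.5% of UMIs, lay 40 antagonist and 27 control cells. Just outside it, at 1.5 to 2%, lay 81 antagonist and 20 control cells, and a further 39 antagonist and 69 control cells passed on the 5 genes but not on the Paneth limit.

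Muc2 (GRCm38 chromosome 7, 141690340 to 141754693) is the gene by which the lineage is known, and its promoter is shown because Atoh1, the factor that sets the secretory fate, is a basic helix-loop-helix protein of the kind that binds E boxes. Of 10 genes looked up in the RefSeq promoter table (GRCm38.p6), 5 had an entry. The 250 bases before the annotated start of Muc2 (chr7:141690090-141690339, plus strand) held 1 match to CAGCTG, which is its own reverse complement, 107 to 112 bases before the start, shown in capitals. It held no match on either strand to the forkhead motif TGTTTAC or to GGCGCC. The E box motif CAGCTG occurred in 13.0% of 32851 promoter windows of the same length, and a match is a description of the sequence.
Muc2: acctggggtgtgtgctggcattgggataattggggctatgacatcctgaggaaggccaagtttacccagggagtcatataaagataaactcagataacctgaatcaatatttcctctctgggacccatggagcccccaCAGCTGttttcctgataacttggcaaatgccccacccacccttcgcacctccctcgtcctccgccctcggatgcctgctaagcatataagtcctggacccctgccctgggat

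The cells also carried goblet cell transcripts that the choice did not use. Of the 12 transcripts that led goblet cells over the other cells of their own library, 9 were shared by both libraries, and these included Rep15, Clca1, Sytl2, Tpsg1 and Zg16. Rep15, a Rab15 effector, stood at 279 CPM in antagonist goblet cells against 9.87 CPM in the other antagonist cells, and at 258 CPM in control goblet cells against 3.73 CPM in the other control cells. Sytl2, a granule-docking protein, stood at 101 CPM against 3.83 CPM in the antagonist library and at 89.6 CPM against 2.44 CPM in the control library. Since the cells were chosen on transcripts of the same cells, these folds are descriptions. Markers of non-epithelial cells were at or near 0. Those of B and plasma cells summed to 6 UMIs in antagonist and 10 in control goblet cells, those of T and NK cells to 1 and 0, and those of myeloid cells to 8 and 20. Fibroblast and smooth muscle markers summed to 0 UMIs in both, and endothelial markers to 0 in antagonist and 4 in control goblet cells. Of the 573 enteroendocrine marker UMIs in antagonist goblet cells 560 were Sct, the secretin gene, as were 631 of the 666 in control goblet cells.

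**Figure D1:**
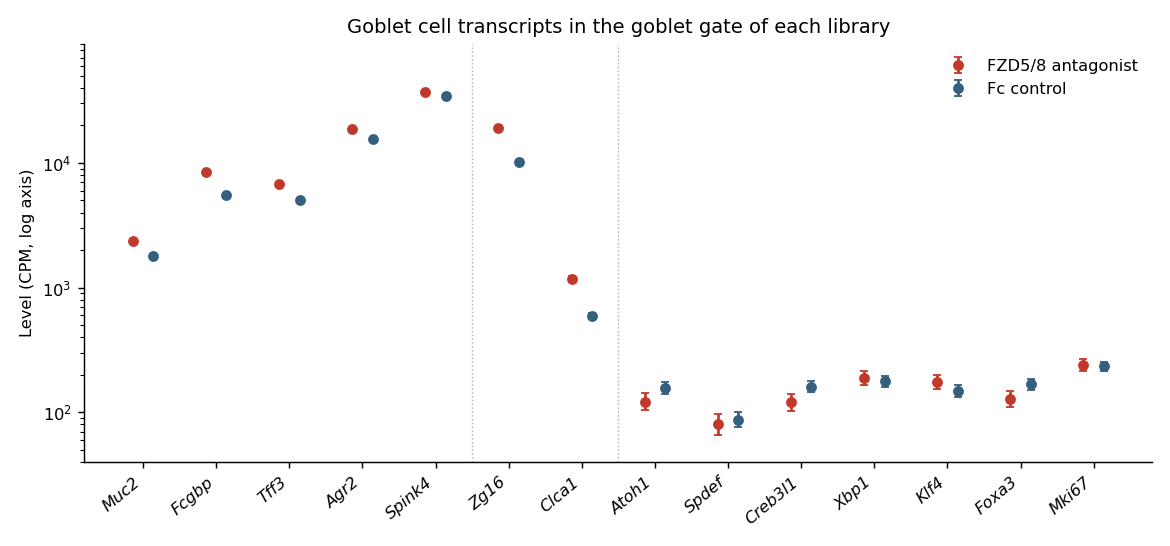
Summed level of each gene in the goblet gate of the FZD5/8 antagonist library (red) and the Fc control library (blue), in CPM on a log axis, with exact 95% Poisson intervals (smaller than the points where not visible). The first 5 genes chose the cells; Zg16 and Clca1 stood at 18973 and 1174 CPM in the antagonist library against 10172 and 595 CPM in the control library, and the regulators from Atoh1 to Foxa3 lay close together in both.

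Goblet cells made up a larger share of the antagonist library over all kept cells, and a closer share among deeper cells. They were 3.18% of antagonist cells (2.86 to 3.52%) and 2.34% of control cells (2.07 to 2.64%), a ratio of 1.36 (1.15 to 1.60). Antagonist goblet cells had a median of 3029.5 UMIs and 1306 genes, and control goblet cells a median of 7843 UMIs and 2511.5 genes. Leaving out cells under 2000 UMIs gave shares of 3.53% and 2.85%, a ratio of 1.24, and leaving out those under 3000 UMIs gave 3.53% and 3.2%, a ratio of 1.11. When the cells with 3000 UMIs or more were also thinned to that number, which left out the same 5983 antagonist and 3727 control cells, the shares were 3.51% (3.02 to 4.06%) of antagonist cells and 3.13% (2.75 to 3.55%) of control cells. The ratio was then 1.12 (0.918 to 1.37), an interval that includes equality. The ratio thus moved with which cells were left out and little with thinning itself. With the limit at 1% of UMIs in place of 2% the shares were 5.73% and 2.83%. The cells had been sorted on the Lgr5 reporter, so these are shares of a sorted fraction and not of the epithelium.

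Of the mucus genes, Zg16 and Clca1, which the choice of cells did not use, had the highest ratios of the antagonist over the control library in goblet cells. Zg16 (chromosome 7, 127050156 to 127087328) encodes a lectin that binds bacterial cell walls and keeps bacteria from the epithelium, and Clca1 (chromosome 3, 145003817 to 145032776) a metalloprotease that processes mucus. Zg16 was counted 25460 times in antagonist goblet cells, 18973 CPM (18741 to 19208), and 23839 times in control goblet cells, 10172 CPM (10043 to 10302). The ratio was 1.87 (1.83 to 1.90). Clca1 stood at 1174 CPM in antagonist and 595 CPM in control goblet cells, a ratio of 1.97 (1.83 to 2.12). Outside the goblet gate the contrast was wider, with Zg16 at 800 CPM in the antagonist library and 34.0 CPM in the control library. The 5 goblet cells with the most Zg16 held 27.8% of its goblet cell UMIs in the antagonist and 42.4% in the control library. For Clca1 these shares were 19.5% and 39%.

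The sums hid a difference in how many goblet cells carried Zg16. Goblet cells were put into 3 ranges by the share of their UMIs that was Zg16, with limits chosen after the data were seen. At least 1% of UMIs was Zg16 in 97 of 350 antagonist goblet cells, 27.7% (23.1 to 32.7%), and in 33 of 264 control goblet cells, 12.5% (8.76 to 17.1%). Between 0.1 and 1% lay 24.6% of antagonist and 9.85% of control goblet cells. Below 0.1% lay 47.7% (42.4 to 53.1%) of antagonist and 77.7% (72.1 to 82.5%) of control goblet cells. With every goblet cell thinned to 3000 UMIs, the highest range held 33.1% (26.3 to 40.6%) of 178 antagonist and 12.9% (8.91 to 17.8%) of 241 control goblet cells. The shares of the highest range differed by more than counting error among these cells too. Within the highest range Clca1 stood at 3031 CPM in antagonist and 2793 CPM in control cells, and Muc2 at 3945 and 4037 CPM. The level of Zg16 within a range is set by the division itself and is not compared. When the 3 ranges were given the same weight in both libraries, the log2 ratio of Clca1 was 0.17 in place of 0.98, and that of Muc2 was 0.04 in place of 0.40.

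**Figure D2:**
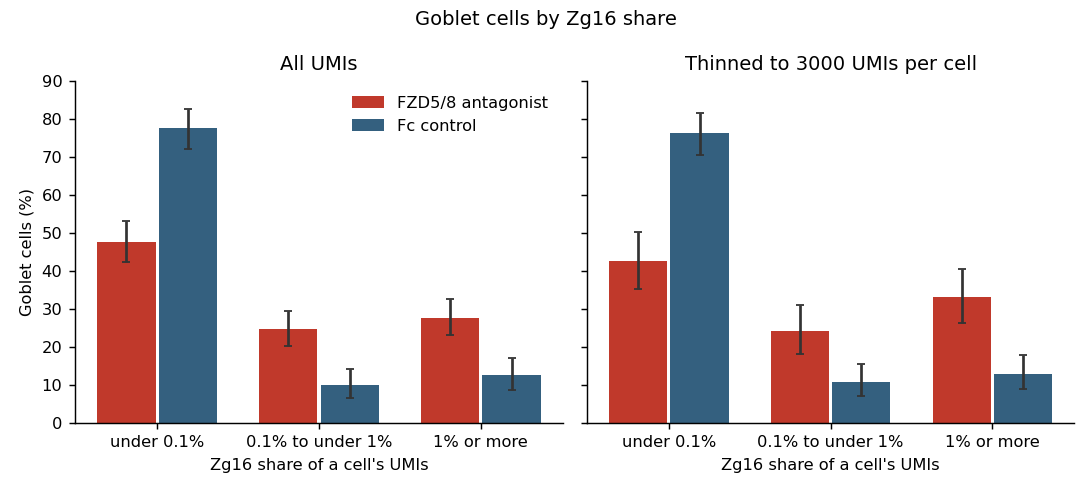
Share of goblet cells (%) in 3 ranges of the Zg16 share of a cell's UMIs, in the FZD5/8 antagonist library (red) and the Fc control library (blue), with exact 95% binomial intervals, over all UMIs (left) and after thinning each cell to 3000 UMIs (right). In both panels the highest range holds a larger share of antagonist than of control goblet cells (27.7% and 12.5% over all UMIs), and the lowest range a smaller share.

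The range rich in Zg16 had a gene pattern of its own in both libraries. Of the 12 transcripts that led the cells with at least 1% Zg16 over those below 0.1%, 7 were shared between libraries: Clca1, Klk1, Nupr1, Ramp1, Rbp2, S100a6 and Scin. Klk1, a secreted kallikrein protease, stood at 1323 CPM in the highest and 355 CPM in the lowest range of the antagonist library, and at 1533 and 430 CPM in those of the control library. Scin, which encodes scinderin and severs actin filaments during exocytosis, stood at 321 and 69.7 CPM in the antagonist library and at 231 and 45.1 CPM in the control library. Fcgbp was 2.95-fold higher (2.82 to 3.08) in the highest than in the lowest range of the antagonist library and 3.57-fold (3.43 to 3.71) in the control library, although all these cells had passed the same limit on Fcgbp and its 4 partners. Since the cells were divided by a measured transcript, these are descriptions.

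Cell cycle transcripts were lowest in the range rich in Zg16. The G2 and M phase genes summed to 2026 CPM in the highest, 5486 CPM in the middle and 6171 CPM in the lowest range of the antagonist library, and to 2331, 3798 and 5392 CPM in those of the control library. The S phase genes summed to 826, 1600 and 2066 CPM in the antagonist library and to 781, 1574 and 1743 CPM in the control library. Mki67, a marker of dividing cells, stood at 100 CPM in the highest, 335 CPM in the middle and 282 CPM in the lowest range of the antagonist library, and at 71.5, 187 and 276 CPM in those of the control library. Of the 12 transcripts most tilted to the lowest range, 1 was shared between libraries, Lyz1, which entered the choice of cells. The others included Nusap1, Birc5 and Prc1, which act in mitosis, in the antagonist library and Sox9, Cdca7 and Rgmb in the control library. Creb3l1, a transcription factor of secretory cells, stood at 70.3 CPM in the highest and 138 CPM in the lowest range of the antagonist library, and at 93.6 and 180 CPM in those of the control library.

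Summed over all goblet cells, division transcripts differed little between libraries. Mki67 stood at 241 CPM in antagonist and 234 CPM in control goblet cells, a ratio of 1.03 (0.896 to 1.18), and Top2a at 349 and 319 CPM. At 3000 UMIs per cell, 37.1% (30.0 to 44.6%) of antagonist and 31.1% (25.3 to 37.4%) of control goblet cells had a Mki67 UMI. Without thinning these shares were 38.0% and 48.9%. In the enterocyte gate, cells chosen by 5 absorptive genes such as Apoa4 and Alpi and expected to divide little, the thinned shares were 3.74% and 5.43%. The median log2 ratio was 0.01 over 52 G2 and M phase genes and −0.0017 over 41 S phase genes, against −0.06 over all 9055 genes with at least 20 goblet cell UMIs.

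The regulators of goblet fate stood near the background or slightly lower in antagonist goblet cells. The median log2 ratio over 23 secretory fate regulators was −0.22. None was 2-fold or more higher and 1 was 2-fold or more lower, against 1.93% of all genes with 20 UMIs that were 2-fold or more higher and 3.95% that were 2-fold or more lower. That one, Neurog3 of the endocrine lineage, had 4 UMIs in antagonist and 16 in control goblet cells, held by 2 cells in each library. Atoh1 stood at 121 CPM in antagonist and 157 CPM in control goblet cells, a ratio of 0.776 (0.641 to 0.935). Spdef, which drives goblet and Paneth maturation, stood at 80.5 and 87.5 CPM, a ratio of 0.920 (0.722 to 1.17). Klf4, a factor of goblet cell differentiation, stood at 177 and 149 CPM, a ratio of 1.19 (1.0 to 1.40). Creb3l1 stood at 121 and 161 CPM, a ratio of 0.750 (0.620 to 0.905), while outside the goblet gate its log2 ratio was 0.66. Foxa2 and Sox4, at log2 ratios of −0.84 and −0.78, were the lowest regulators with at least 20 CPM. Thinned to 3000 UMIs, 28.1% (21.6 to 35.3%) of antagonist and 39.0% (32.8 to 45.5%) of control goblet cells had an Atoh1 UMI, against 1 of 187 antagonist and 0 of 129 control cells of the enterocyte gate.

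The genes that fold, transport and glycosylate mucin were close to the background, while the sulfation list stood higher. Xbp1, the factor of the unfolded protein response that expands the endoplasmic reticulum, stood at 189 CPM in antagonist and 177 CPM in control goblet cells, a ratio of 1.07 (0.913 to 1.26). Ern2, the epithelial sensor of that response, stood at 76.8 and 83.2 CPM. The median log2 ratio was 0.09 over 33 genes of folding and the unfolded protein response and 0.03 over 41 genes of translocation and vesicle transport, and no member of either list was past 2-fold. Of 32 glycosylation genes with a median of −0.03, 1 was 2-fold or more higher, the sialyltransferase gene St3gal4 (58.1 CPM in antagonist and 27.7 CPM in control goblet cells). The 1 that was 2-fold or more lower was Fut2, a fucosyltransferase gene, with 5 UMIs in antagonist and 31 in control goblet cells. In the sulfation list, whose genes make and carry the sulfate added to mucins, 2 of 8 were 2-fold or more higher. The median of the sulfation list was 0.46, and 0.30 outside the goblet gate. Over 18 alternative settings it lay between 0.0012 and 0.80 in goblet cells. Among all genes with 20 UMIs, 1.93% were 2-fold or more higher and 3.95% 2-fold or more lower. Bpnt1, which clears a by-product of sulfation, stood at 74.5 CPM in antagonist and 33.7 CPM in control goblet cells, a ratio of 2.21 (1.63 to 3.01). The sulfate transporter gene Slc26a2 stood at 146 and 87.0 CPM, a ratio of 1.68 (1.37 to 2.05).

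Past 2-fold higher were 1 gene of granule release and 2 of ion transport, against 1.93% of all genes with 20 UMIs. Of 21 exocytosis genes with a median log2 ratio of 0.05, only Scin was 2-fold or more higher, with 185 CPM in antagonist and 85.8 CPM in control goblet cells, a ratio of 2.15 (1.78 to 2.61). Within the highest Zg16 range its ratio was 1.39 (1.05 to 1.85). Of 14 ion and water transport genes 2 were 2-fold or more higher, the anion exchanger genes Slc26a3 and Slc26a6. Slc26a3 had 30 UMIs in antagonist and 14 in control goblet cells, and Slc26a6 had 23 and 5. The 1 that was 2-fold or more lower was Clca3b, with 134 CPM in antagonist and 273 CPM in control goblet cells, and Slc12a2, the basolateral sodium, potassium and chloride cotransporter, stood at 282 and 485 CPM. Both are also on the Lgr5 stem cell list.

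**Figure D3:**
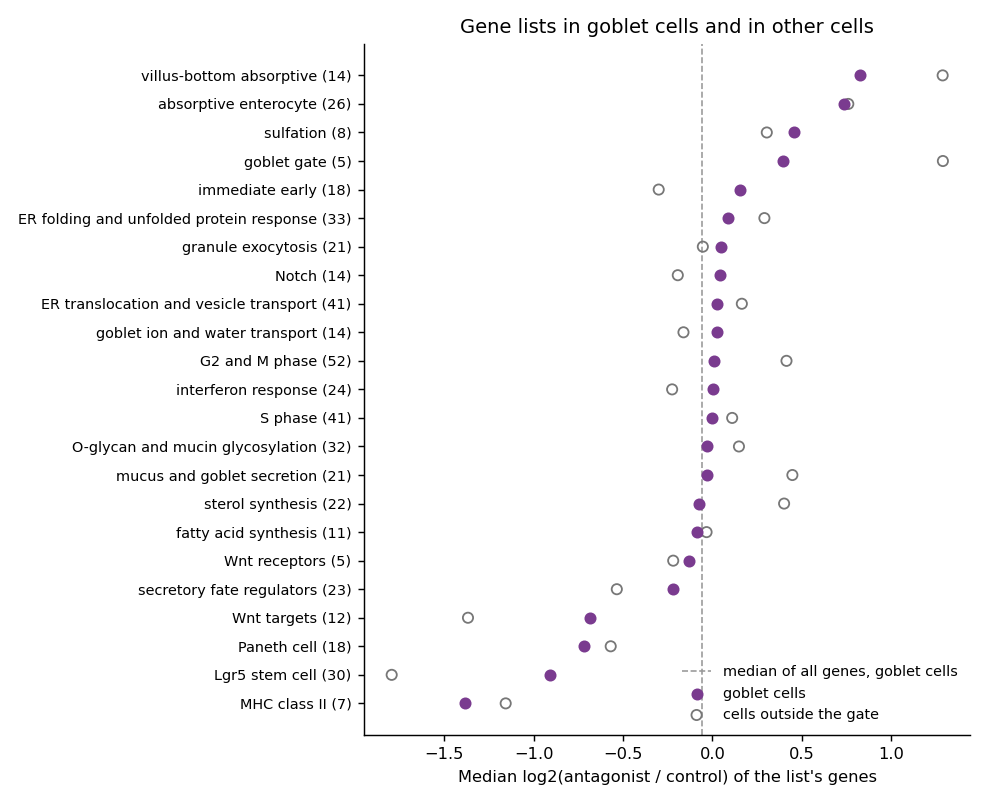
Median log2 ratio of the FZD5/8 antagonist library over the Fc control library for each gene list, with the number of measured genes in brackets, in goblet cells (filled) and in all kept cells outside the goblet gate (open); the dashed line is the median of all 9055 genes in goblet cells, −0.06. The MHC class II, stem cell and Paneth lists lie lowest and the 2 absorptive lists highest. The cell cycle lists and the folding, transport and glycosylation lists lie near the line, and the sulfation list lies above it at 0.46. The goblet gate genes chose the cells.

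Stem cell and Wnt target transcripts were lower in antagonist goblet cells, as they were outside the gate. All 30 measured members of the Lgr5 stem cell list had log2 ratios below 0, with a median of −0.91 in goblet cells and −1.79 outside them, and 13 of the 30 were 2-fold or more lower, against 3.95% of all genes with 20 UMIs. Of 12 Wnt targets, with a median of −0.68, 3 were 2-fold or more lower, against the same 3.95%, and none 2-fold or more higher. Axin2, a direct target that restrains the Wnt pathway, had 20 UMIs and 14.9 CPM in antagonist goblet cells and 124 UMIs and 52.9 CPM in control goblet cells, a ratio of 0.282 (0.166 to 0.454). Lgr5 itself had 2 UMIs in antagonist and 29 in control goblet cells, a ratio of 0.120 (0.0139 to 0.476). Fzd5, a targeted receptor, stood at 45.5 CPM in antagonist and 29.0 CPM in control goblet cells, a ratio of 1.57 (1.09 to 2.25), and Fzd8 had 1 UMI in antagonist and 8 in control goblet cells.

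Olfm4, a secreted glycoprotein abundant in crypt base stem cells, had the lowest ratio of the 2802 genes open to the rule for named genes. It stood at 98.4 CPM (82.3 to 117) in antagonist goblet cells and 602 CPM (571 to 634) in control goblet cells, a ratio of 0.163 (0.136 to 0.195). Cells expected to lack it showed the same order. In the tuft gate, chosen by genes of chemosensory cells such as Dclk1, Olfm4 stood at 38.4 CPM in the antagonist and 302 CPM in the control library, and in the enterocyte gate at 47.5 and 278 CPM. Thinned to 3000 UMIs, 18.5% of antagonist and 54.4% of control goblet cells had an Olfm4 UMI, against 16.7% of 18 antagonist and 45.9% of 111 control cells of the tuft gate. The part of free RNA in the goblet cell level of Olfm4 was not tested.

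**Figure D4:**
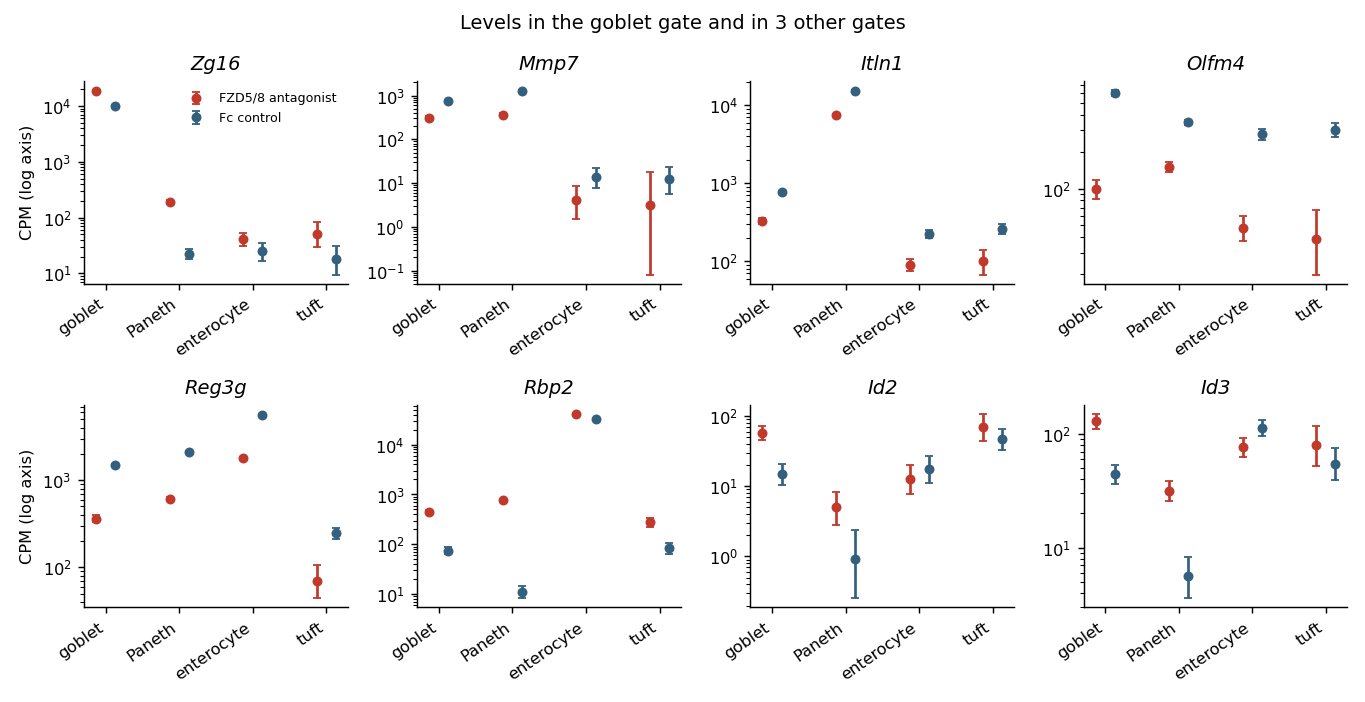
Level of 8 genes in the goblet, Paneth, enterocyte and tuft gates of the FZD5/8 antagonist library (red) and the Fc control library (blue), in CPM on log axes with exact 95% Poisson intervals. Zg16 and Mmp7 lie far above the enterocyte and tuft gates in goblet cells, Olfm4 reaches 302 CPM in the control tuft gate against 602 CPM in control goblet cells, and Id3 is higher in the antagonist library in the goblet, Paneth and tuft gates and lower in the enterocyte gate.

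Paneth cell transcripts were also lower in antagonist goblet cells. Of 18 measured Paneth genes, 7 were 2-fold or more lower, against 3.95% of all genes, and none 2-fold or more higher, with a median log2 ratio of −0.72, but Lyz1 and the Defa genes among them entered the choice of cells as an upper limit. Defa21 stood at 52.9 CPM in antagonist and 145.5 CPM in control goblet cells. Its levels were 60.9 and 203 CPM in the tuft gate and 56.8 and 165 CPM in the enterocyte gate, no lower than in goblet cells. The part of free RNA in the Defa levels was not tested. Mmp7, the protease that activates Paneth defensins, did not enter the choice of cells. It stood at 305 CPM in antagonist and 755 CPM in control goblet cells, a ratio of 0.404 (0.362 to 0.450). Its level in the tuft gate was 3.2 CPM in the antagonist and 12.4 CPM in the control library, far below the goblet cell level. In the Paneth gate Mmp7 was lower in the antagonist library too, at 368 CPM against 1292 CPM in the control library. At 3000 UMIs per cell, 36.5% (29.4 to 44.0%) of antagonist and 66.0% (59.6 to 71.9%) of control goblet cells had an Mmp7 UMI, and within each of the 3 Zg16 ranges its ratio lay between 0.388 and 0.524. Itln1, a lectin of Paneth and goblet cells, stood at 330 and 770 CPM, a ratio of 0.429 (0.385 to 0.476). The tuft gate held 99.3 CPM of Itln1 in the antagonist and 262 CPM in the control library, and the Paneth gate 7515 and 15514 CPM. Within the upper 2 Zg16 ranges its ratio was 1.16 (0.847 to 1.58) and 0.812 (0.635 to 1.04), so the contrast lay in the cells with little Zg16. With the goblet limit at 1% of UMIs the log2 ratio of Itln1 was −0.15 in place of −1.22, that of Defa21 0.47 in place of −1.45 and that of Defa22 0.81 in place of −1.42.

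The antimicrobial lectins Reg3b and Reg3g were lower in antagonist goblet cells, but a few cells held much of their RNA. Reg3b stood at 136 CPM in antagonist and 754 CPM in control goblet cells, a ratio of 0.181 (0.154 to 0.211), and Reg3g at 363 and 1482 CPM, a ratio of 0.245 (0.222 to 0.269). The 5 goblet cells with the most Reg3b held 71.6% of its goblet cell UMIs in the antagonist library and 48.4% in the control library. For Reg3g these shares were 66.3% and 40.8%. At 3000 UMIs per cell, 15.7% (10.7 to 21.9%) of antagonist and 44.0% (37.6 to 50.5%) of control goblet cells had a Reg3g UMI. In the tuft gate these shares were 22.2% (4 of 18) and 23.4%, and without thinning 13.2% and 38.4%. Both genes were lower in the antagonist library in the tuft, enterocyte and Paneth gates too. Reg3b stood at 28.8 and 245 CPM in the tuft gate. Reg3g stood at 70.5 and 246 CPM in the tuft gate and 1793 and 5640 CPM in the enterocyte gate. In the Paneth gate Reg3g stood at 609 and 2131 CPM. In the middle Zg16 range the ratio of Reg3g was 1.75 (1.21 to 2.55), against 0.239 in the lowest and 0.146 in the highest range. With the goblet limit at 1% of UMIs the log2 ratio of Reg3b was −0.50 in place of −2.46 and that of Reg3g −0.93 in place of −2.03.

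MHC class II transcripts, which present antigen to T cells and are made by crypt epithelium, were lower in antagonist goblet cells. Of 7 measured genes 4 were 2-fold or more lower, against 3.95% of all genes, and the median log2 ratio was −1.38 in goblet cells and −1.16 outside them. Cd74, the invariant chain, stood at 124 CPM in antagonist and 323 CPM in control goblet cells, a ratio of 0.382 (0.321 to 0.453). In the tuft gate it stood at 64.1 and 66.0 CPM. H2-Aa, H2-Ab1 and H2-Eb1, which encode class II chains, had ratios of 0.333 (0.182 to 0.572), 0.548 (0.396 to 0.748) and 0.329 (0.167 to 0.6). The interferon list, by contrast, had a median of 0.00 over 24 genes, with none 2-fold or more higher and 2 lower.

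Absorptive transcripts were higher in antagonist goblet cells. Of 26 measured enterocyte genes 12 were 2-fold or more higher, against 1.93% of all genes, and none 2-fold or more lower, with a median log2 ratio of 0.73 in goblet cells and 0.76 outside them. Rbp2, the retinol-binding protein of enterocytes, stood at 445 CPM (410 to 482) in antagonist and 74.7 CPM (64.0 to 86.6) in control goblet cells, a ratio of 5.96 (5.03 to 7.09). The 5 cells with the most Rbp2 held 36.4% of its goblet cell UMIs in the antagonist and 45.7% in the control library. Among antagonist goblet cells it stood at 705 CPM where the 5 goblet genes made up 2 to 4% of UMIs and at 66.9 CPM where they made up 16% or more, against 60.9 and 52.2 CPM among control goblet cells. Its level in the tuft gate was 279 CPM in the antagonist and 82.4 CPM in the control library, against 41080 and 32402 CPM in the enterocyte gate. Thinned, 42.1% of antagonist and 11.2% of control goblet cells had an Rbp2 UMI, against 27.8% and 18.9% of the tuft gate. Fabp1, a fatty acid binding protein, stood at 310 CPM in antagonist and 122 CPM in control goblet cells, where 5 cells held 31.3% and 49.1% of its UMIs. The part of free RNA and of doublets with enterocytes in these levels was not tested.

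Among the 12 highest ratios were Gsta4, Gsta1 and Gstm3, which encode glutathione S-transferases that detoxify electrophiles. Outside the goblet gate these genes were higher in the antagonist library too, with ratios of 2.68 for Gsta4, 2.54 for Gsta1 and 2.5 for Gstm3. Gsta4 stood at 101 CPM in antagonist and 27.3 CPM in control goblet cells, a ratio of 3.68 (2.72 to 5.04). Thinned to 3000 UMIs, 18 antagonist (0 to 18.5%) and 111 control (0 to 3.27%) tuft gate cells had no UMI of Gsta4. It was concentrated in the cells rich in Zg16, with 294 CPM in the highest and 11.6 CPM in the lowest range of the antagonist library and 138 and 7.61 CPM in those of the control library. Within the highest range its ratio was 2.14 (1.52 to 3.04). Gsta1 stood at 79.7 and 20.9 CPM, a ratio of 3.81 (2.70 to 5.46), and in the control library 5 cells held 85.7% of its UMIs. Gstm3 stood at 66.3 and 18.8 CPM, a ratio of 3.53 (2.44 to 5.19). Thinned, 44.9% of antagonist enterocyte gate cells had a Gsta4 UMI, 90.9% a Gsta1 UMI and 87.7% a Gstm3 UMI. In antagonist goblet cells these shares were 19.1%, 12.9% and 18.5%. Dmbt1, a scavenger protein of mucosal surfaces that is secreted into mucus, stood at 1907 CPM in antagonist and 788 CPM in control goblet cells, a ratio of 2.42 (2.28 to 2.57). It was higher in antagonist cells in each Zg16 range, with ratios between 1.80 and 2.55. Its level in the tuft gate was 381 and 126 CPM. Dmbt1 was more abundant outside the goblet gate, at 3851 CPM in the antagonist and 1091 CPM in the control library, a ratio of 3.53. Among antagonist goblet cells it stood at 3078 CPM where the 5 goblet genes made up 2 to 4% of UMIs. Where they made up 16% or more it stood at 174 CPM, against 947 and 39.1 CPM in those ranges of control goblet cells. The part of free RNA and of doublets in these levels was not tested.

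Id2 and Id3, inhibitors of basic helix-loop-helix factors, were higher in antagonist goblet cells. They are known as targets of BMP signalling, and the proteins they inhibit are dimers of the class to which Atoh1 belongs. Id2 (chromosome 12, 25093799 to 25097140) had 77 UMIs and 57.4 CPM (45.3 to 71.7) in antagonist goblet cells and 35 UMIs and 14.9 CPM (10.4 to 20.8) in control goblet cells, a ratio of 3.84 (2.55 to 5.91). Id3 (chromosome 4, 136143497 to 136145755) stood at 130 CPM (111 to 150) and 44.4 CPM (36.3 to 53.8), a ratio of 2.92 (2.28 to 3.76). Id1 stood at 85.0 and 43.5 CPM, a ratio of 1.95 (1.48 to 2.58). Outside the goblet gate the log2 ratios were −0.42 for Id2, 0.23 for Id3 and 0.12 for Id1. In the enterocyte gate Id3 stood at 76.2 CPM in the antagonist and 114 CPM in the control library, the opposite order to that in goblet cells. In the Paneth gate, cells of the related lineage, Id3 stood at 31.8 CPM in the antagonist and 5.59 CPM in the control library, the same order as in goblet cells, and Id2 at 5.02 and 0.932 CPM, from 15 and 4 UMIs. In the tuft gate Id3 stood at 80.1 and 55.0 CPM and Id2 at 70.5 and 46.7 CPM, and for each the intervals of the libraries overlapped. Cells outside the goblet and Paneth gates with at least 0.1% Zg16 had Id3 at 91.9 CPM in the antagonist and 174.6 CPM in the control library. That order is opposite to the one in goblet cells. Id2 stood there at 12.7 and 11.9 CPM, and the control library had 50 such cells with 44 Id3 and 3 Id2 UMIs.

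Single cells did not hold most of the Id transcripts. At 3000 UMIs per cell, 31.5% (24.7 to 38.8%) of antagonist and 9.96% (6.49 to 14.5%) of control goblet cells had an Id3 UMI. For Id2 these shares were 15.7% (10.7 to 21.9%) and 5.39% (2.90 to 9.05%). In the tuft gate they were 33.3% (6 of 18) and 17.1% for Id3 and 5.56% (1 of 18) and 14.4% for Id2. The tuft gate shares of Id3 were thus no lower than those of goblet cells in either library, and the part of free RNA was not tested. Without thinning they were 31.1% and 25.8% for Id3 and 18.6% and 11.4% for Id2. The 5 highest cells held 14.3% of the Id2 UMIs in the antagonist and 28.6% in the control library. By Zg16 range, the ratio of Id3 was 3.63 (2.5 to 5.31) in the lowest, 3.73 (1.98 to 7.65) in the middle and 1.17 (0.754 to 1.83) in the highest range, so the contrast in Id3 lay in cells with less Zg16. With the ranges weighted alike the log2 ratios were 1.88 for Id2 and 1.33 for Id3. Tbx3, a transcription factor of the T-box family, also had opposite signs inside and outside the goblet gate, with 76.0 CPM in antagonist and 26.9 CPM in control goblet cells, a ratio of 2.83 (2.05 to 3.94), and a log2 ratio of −0.26 outside the gate.

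The promoters of Id2 and Id3 are shown because their transcripts were higher together, with capitals for matches to CAGCTG and to GGCGCC, a GC-rich element bound by SMAD proteins downstream of BMP receptors that is its own reverse complement. The Id2 window (chr12:25096093-25096342, minus strand, written 5′ to 3′ along the gene) held 1 match to GGCGCC, 226 to 231 bases before the start, and 1 to CAGCTG, 191 to 196 bases before it. The Id3 window (chr4:136143572-136143821, plus strand) held no match to either motif. Both windows lie before the start in RefSeq, which is inside the longer gene span given above from GENCODE. GGCGCC occurred in 9.59% and TGTTTAC, searched on both strands and absent from both windows, in 3.17% of the 32851 windows.
Id2: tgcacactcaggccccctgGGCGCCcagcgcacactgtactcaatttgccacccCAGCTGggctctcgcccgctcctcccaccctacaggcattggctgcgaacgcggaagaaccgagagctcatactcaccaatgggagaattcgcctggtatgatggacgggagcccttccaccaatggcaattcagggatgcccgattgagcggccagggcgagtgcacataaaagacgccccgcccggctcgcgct
Id3: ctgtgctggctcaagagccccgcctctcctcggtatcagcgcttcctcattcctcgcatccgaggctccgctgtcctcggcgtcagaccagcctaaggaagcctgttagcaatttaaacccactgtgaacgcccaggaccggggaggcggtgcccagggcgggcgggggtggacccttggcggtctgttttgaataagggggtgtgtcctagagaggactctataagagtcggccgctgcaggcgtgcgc

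**Figure D5:**
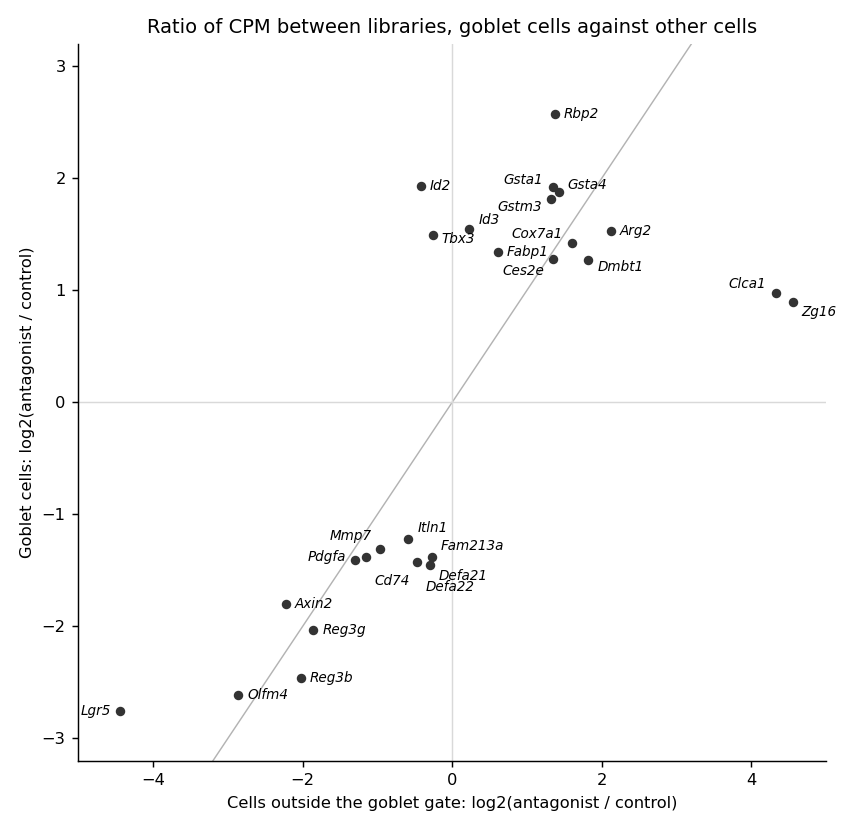
Log2 ratio of the FZD5/8 antagonist library over the Fc control library in goblet cells (vertical) against all kept cells outside the goblet gate (horizontal), 1 point per gene, for genes among the 12 highest and 12 lowest ratios in goblet cells (Xist and 1 gene not reported here are not drawn) and for Zg16, Clca1, Dmbt1 and Lgr5; the diagonal marks equal ratios. Most genes lie on the same side of 0 in both, Zg16 and Clca1 lie far right of the diagonal, and Id2 and Tbx3 are above 0 in goblet cells and below 0 outside them.

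Other extremes among named genes were metabolic or of mixed function. Pdgfa, a growth factor gene, stood at 22.4 CPM in antagonist and 60.2 CPM in control goblet cells, and Fam213a, a peroxiredoxin-like gene, at 59.6 and 156 CPM. Arg2, the mitochondrial arginase, stood at 96.1 and 33.3 CPM, a ratio of 2.89 (2.16 to 3.88). Cox7a1, a subunit of the respiratory chain, and Ces2e, a carboxylesterase gene, had ratios of 2.68 (1.88 to 3.85) and 2.44 (1.77 to 3.38). Of all 4473 genes with at least 100 goblet cell UMIs, 29 (0.648%) were 2-fold or more higher and 39 (0.872%) 2-fold or more lower in antagonist goblet cells. Retnlb, a secreted goblet cell protein of the mucus list, had 11 UMIs in antagonist and 64 in control goblet cells, a ratio of 0.300 (0.143 to 0.574). With Itln1 and Ang4 (98.4 and 199 CPM) it made up the 3 of 21 measured genes of that list at least 2-fold lower. Among all genes with 20 UMIs, the limit for list members, 3.95% were 2-fold or more lower. No gene of the mucus list was 2-fold or more higher and its median log2 ratio was −0.03.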

How the data were processed

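UMI counts per gene and cell barcode were deposited by the authors as 1 matrix per library, not normalized. Cell Ranger and the build GRCm38 (mm10) are named, per the submitters' processing notes, and 3.1.0 is the software version, per the file headers. The sources used here do not state how barcodes were chosen. The lowest barcode in each library had 500 UMIs. Matrices were read in Python 3.11.15 with scipy 1.17.1 and pandas 2.3.3.

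The filter kept barcodes with 500 or more genes and no more than 20% of UMIs from genes with the prefix mt-, and goblet cells were selected on the summed share of 5 genes as described. No doublet caller was run, and leaving out cells with markers of other lineages was an alternative. UMIs were summed over the goblet cells of a library (1341887 in the antagonist and 2343646 in the control library) and divided by that total to give CPM. Intervals are at 95% and cover counting error only: exact Poisson for levels, conditional binomial for ratios and Clopper-Pearson for shares. Log2 ratios are of the antagonist over the control library with 0.5 added to each sum. Thinning drew 3000 UMIs per cell without replacement and left out shallower cells. The calculations were tested on simulated data.

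The rule for named genes required 50 CPM in either library and 100 UMIs in all. It passed over unnamed gene models and genes of mitochondrial transcripts, ribosomal proteins, haemoglobins and antigen receptors. The 12 highest and 12 lowest ratios were taken, with a fixed set of goblet, stem and Wnt genes always reported. Of the lowest, 1 gene is not reported here. From each list the 2 highest and 2 lowest ratios among members with at least 20 CPM were candidates. Other genes named beside a list were chosen after their values were seen. The members, gene lists and named-gene rule were chosen with earlier results of these data known. A list's value is the median over members with at least 20 UMIs. Of the listed genes 5 had no single entry in the files. Positions come from GENCODE on GRCm38, where 30934 of 31053 gene identifiers were found, and promoters from RefSeq (GRCm38.p6).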

Additional observations from a re-analysis of the deposited data

Results flagged for a closer look

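For 5 of the genes described, the log2 ratio of the antagonist over the control library had opposite signs in goblet cells and in the cells outside the goblet gate, with intervals on opposite sides of equality. For Id2 it was 1.93 in goblet cells and −0.42 outside them, and for Tbx3 1.5 and −0.26. For Creb3l1 it was −0.41 in goblet cells and 0.66 outside them. For Klf4 it was 0.25 and −0.16, and for Spink4, which took part in choosing the cells, 0.11 and −0.017. Under 16 alternative settings the goblet cell ratio of Klf4 kept its direction in 14 and that of Spink4 in 12. Those of Id2, Tbx3 and Creb3l1 kept theirs in all 16. With 1 library per group these differences were not tested.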

How the results depend on the processing

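No paired analysis was possible because each group has 1 library. Of 2224 values of named genes under alternative settings, 1975 moved little, 245 moved and 4 were counted as changing sign. Of 414 list medians 360 moved little, 46 moved and 8 were counted as changing sign. A change was counted only for genes 2-fold or more apart in the main setting and for lists with medians clear of equality. Smaller values that turned were counted as moved or as moved little. Pcna kept its direction in 8 of 16 settings, Spink4 and Mki67 in 12, and the S phase list in 9 of 18. Genes 2-fold or more higher numbered 29, against 87 with the goblet limit at 1% of UMIs, 15 at 4%, 62 with no Paneth limit, 11 after thinning, 175 at 20 UMIs and 1128 with no limit on UMIs. Genes 2-fold or more lower numbered 39, against 60 with equal weight for each cell, 22 after thinning, 358 at 20 UMIs and 2134 with no limit. The antagonist share was 5.73% at the 1% limit, 2.32% at 4%, 2.82% with all 5 genes detected, 2.68% with a Paneth limit of 2%, 3.53% with no Paneth limit and 3.53% in cells with 2000 or with 3000 UMIs or more. The control share was 2.83% at the 1% limit, 1.60% at 4%, 1.64% with a Paneth limit of 2%, 2.96% with no Paneth limit, 2.78% with 1000 genes or more, 2.70% with at most 10% mitochondrially encoded UMIs, 2.85% in cells with 2000 UMIs or more, 3.2% with 3000 or more and 3.13% after thinning. The share ratio was 2.02 at the 1% limit, 1.63 with a Paneth limit of 2%, 1.11 in cells with 3000 UMIs or more and 1.12 after thinning, so leaving out shallow cells moved it as far as thinning did. At the 1% limit the median turned for the goblet gate (−0.14), Paneth (0.40) and Wnt receptor (0.061) lists, and Defa21 (0.47), Defa22 (0.81) and Mptx2 (1.27) turned. With no Paneth limit the fate regulators (0.0021) and Wnt receptors (0.19) turned. After thinning Wnt receptors (0.15) and immediate early genes (−0.12; −0.0098 in cells with 3000 UMIs or more) turned, and Neurog3 (0.026) without possible doublets. The cause was not tested. The settings for Zg16 ranges and for 2000 and 3000 UMIs without thinning were chosen after seeing the data. Depth limits genes with few UMIs such as Lgr5 and Fzd8.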

Other observations

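Among Notch pathway genes the median log2 ratio in goblet cells was 0.04 over 14 measured members, with none 2-fold or more higher and 1 lower. Dll1, the ligand that secretory progenitors display, stood at 123 CPM in antagonist and 143 CPM in control goblet cells, a ratio of 0.860 (0.710 to 1.04). Hes1, a target of Notch, stood at 63.3 and 53.3 CPM. Outside the goblet gate Dll1 had a log2 ratio of −1.32.

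Sterol and fatty acid synthesis were close to the background of −0.06, with medians of −0.07 over 22 and −0.09 over 11 genes. The immediate early list, whose members respond to handling and dissociation of tissue, had a median of 0.15 over 18 genes. Egr1 stood at 101 CPM in antagonist and 52.9 CPM in control goblet cells, a ratio of 1.90 (1.48 to 2.45), and Fos at 114 and 94.3 CPM. Both extremes occurred among villus-bottom absorptive genes. Of 14 measured 6 were 2-fold or more higher in antagonist goblet cells, Arg2 and Dmbt1 among them, against 1.93% of all genes with 20 UMIs. The 2 that were 2-fold or more lower, against 3.95% of all genes, were Reg3b and Reg3g. The median log2 ratio of the list was 0.83 in goblet cells and 1.29 outside them.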
